A study of Mus musculus with 6 samples.

Results

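The interferon-stimulated genes and the receptors, IRF factors and STAT factor that control them were examined in mouse lung endothelial cells (ECs). The set held 40 genes listed by name and role, a list drawn up with earlier results of these data known. Of these, 38 had a probe set that carried only their symbol, out of 18194 genes measured in this way. Isg15 was not measured, because its probe set carries several symbols, and Ifi44 was not analysed here, because no probe set in the annotation carries that symbol. The 38 measured genes comprised 4 receptor subunits, 7 IRF or STAT factors, 2 sensors of viral RNA, 19 antiviral effectors, 5 interferon-inducible GTPases and the feedback inhibitor Socs1.

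The ECs came from lungs of female NSG mice, aged 6 to 8 weeks at the start, which all carried lung metastases of MDA-MB-231-LM2 cells (MDA-LM2), a lung-metastatic derivative of a human breast cancer line. The cancer cells expressed either shRNA that silences TNC, the gene of the extracellular matrix protein tenascin C (shTNC), or control shRNA (shControl). They had been injected intravenously, and lungs were taken at day 20, labelled 3 weeks. ECs were sorted as CD31+ cells after CD45+, CD11b+, EpCAM+, CD140a/b+ and GFP+ cells had been excluded, and there were 3 shTNC and 3 shControl samples, labelled as biological replicates, with 1 array each. NSG mice lack mature T, B and NK cells, of which T and NK cells are main sources of interferon gamma, and this holds for all samples. The silenced gene is the human one, in cells that the sort removed, so the mouse arrays do not check the knockdown. Mice without metastases were not part of the comparison, so the levels below are set only against the other metastatic lungs. The study reports that TNC knockdown reduced lung colonization by these cells, so metastatic burden may differ between the groups. The part of burden in the differences below was not tested.

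Type I interferons signal through the receptor chains IFNAR1 and IFNAR2, and interferon gamma through IFNGR1 and IFNGR2. Type I signaling forms the complex ISGF3, which holds STAT2 and IRF9 and binds an interferon-stimulated response element (ISRE) in promoters of antiviral genes, whereas interferon gamma acts mainly through a gamma-activated site (GAS). ECs line the vessel wall, carry both receptors and respond to both kinds of interferon.

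The promoter stretches of 7 of the genes are shown because they hold, or lack, the elements through which the pathway is known to act. Each is the 160 bases before the transcription start in RefSeq, build GRCm38.p6, read 5′ to 3′ on the strand of the gene. Capitals mark an ISRE core (GAAA and GAAA with 2 bases of any kind between them) or a GAS (TTCNNNGAA), each searched on both strands, so that an ISRE core on the opposite strand reads TTTC and TTTC. Ifit1 and Ifit3, both in the Ifit cluster on chromosome 19, each have 2 separate ISRE cores on the opposite strand, and Rsad2, which encodes the antiviral enzyme viperin, has 1. Igtp has a GAS followed by an ISRE core, and the 2 ISRE cores of Socs1 overlap each other. The stretches of the interferon gamma receptor genes Ifngr1 and Ifngr2 hold neither set of letters.
Ifit1 (chr19:34640729-34640888, plus strand): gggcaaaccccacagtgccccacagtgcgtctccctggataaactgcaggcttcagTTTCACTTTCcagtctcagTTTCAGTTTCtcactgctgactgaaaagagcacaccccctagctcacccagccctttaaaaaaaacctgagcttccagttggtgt
Ifit3 (chr19:34583369-34583528, plus strand): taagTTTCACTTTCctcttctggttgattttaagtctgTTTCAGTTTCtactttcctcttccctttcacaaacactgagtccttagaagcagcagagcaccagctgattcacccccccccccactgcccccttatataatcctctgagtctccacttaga
Rsad2 (chr12:26456453-26456612, minus strand): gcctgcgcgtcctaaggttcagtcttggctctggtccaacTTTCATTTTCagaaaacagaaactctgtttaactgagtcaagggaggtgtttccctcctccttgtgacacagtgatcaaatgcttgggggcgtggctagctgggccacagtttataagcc
Igtp (chr11:58199396-58199555, plus strand): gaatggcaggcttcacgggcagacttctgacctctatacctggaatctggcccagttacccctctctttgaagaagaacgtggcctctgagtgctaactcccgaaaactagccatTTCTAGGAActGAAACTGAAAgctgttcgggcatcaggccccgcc
Socs1 (chr16:10785537-10785696, minus strand): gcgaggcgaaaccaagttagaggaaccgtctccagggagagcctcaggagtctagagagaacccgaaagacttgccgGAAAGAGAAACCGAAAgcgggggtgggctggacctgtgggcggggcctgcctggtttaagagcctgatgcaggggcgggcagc
Ifngr1 (chr10:19591789-19591948, plus strand): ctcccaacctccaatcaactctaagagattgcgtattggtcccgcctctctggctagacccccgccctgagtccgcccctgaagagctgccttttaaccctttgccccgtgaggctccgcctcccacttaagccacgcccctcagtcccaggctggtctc
Ifngr2 (chr16:91546899-91547058, plus strand): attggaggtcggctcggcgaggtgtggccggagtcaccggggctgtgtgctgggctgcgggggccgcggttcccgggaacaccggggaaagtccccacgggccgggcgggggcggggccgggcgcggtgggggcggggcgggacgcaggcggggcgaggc

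A promoter of 250 bases before to 50 bases after the start was found for 32 of the 40 genes. Where a gene had several promoters, a match in any of them counted. An ISRE core was found for 16 of the 32 genes (50%), against 3.99% of all 27025 genes with a promoter. A GAS was found for 11 of the 32 (34.4%), against 9.55% of all genes with a promoter. Split by role, the ISRE core was found for 0 of 4 receptor genes, 2 of 7 IRF or STAT genes (Stat2 and Irf2) and both RNA sensor genes. It was also found for 7 of 14 effector genes and all 4 GTPase genes with a promoter. In Bst2 a GAS and an ISRE core overlap. A match describes letters in this window and not a bound site. Usp18, Mx1, Mx2, Oas2, Rtp4, Parp14, Ly6e and Iigp1 were not matched to a promoter.

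The values are log2 expression levels as deposited, already normalized between arrays, and differences are shTNC minus shControl with the standard error (SE) of limma's empirical Bayes fit over all probe sets. The pan-endothelial markers Pecam1, Cdh5, Tek, Kdr, Vwf, Cldn5, Erg and Tie1 matched the label, with a mean level of 13.63 to 13.66 on shTNC arrays and 13.60 to 13.67 on shControl arrays. RNA of other lung cells was also present. The surfactant gene Sftpc, a marker of alveolar epithelium, had levels of 12.09 to 13.46 on shTNC arrays and 12.95 to 13.41 on shControl arrays, and the lysozyme gene Lyz2, a marker of macrophages that alveolar epithelium also expresses, had 11.59 to 12.55 on shTNC arrays and 12.02 to 12.47 on shControl arrays. Both overlapped between groups. The other epithelial markers were much dimmer. Mean levels in shTNC and shControl ECs were 7.64 and 7.70 for Epcam, 7.78 and 7.42 for Cdh1, and 8.55 and 8.38 for Krt8. The part of other cells in the levels of the interferon genes was not tested. Array shControl replicate 2 stood apart on the first principal component, which held 36.6% of the variance, with a score of 43.6 where the other shControl arrays had 11.1 and -0.251 and the shTNC arrays -21.1 to -16.1. The 3′ minus 5′ signal of the Actb control probe sets, a sign of RNA quality, was 0.20 to 0.27 on shTNC arrays and 0.28 to 0.29 on shControl arrays, without overlap. Its part in the differences below was not tested. The 4 measured cell cycle genes (Mki67, Top2a, Cdk1 and Rrm2) averaged 10.46 to 10.64 on shTNC arrays and 11.03 to 11.59 on shControl arrays. Their median difference was -0.76, and all 4 were lower at an unadjusted p under 0.05, against 7.12% of all genes. This list was also chosen with earlier results of these data known, so it gives no scale for the interferon genes.

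Interferon pathway genes were measured above background in the sorted cells of both groups, and no member passed the test of a difference between them. All 38 genes lay above the background level of 7.48, set at the 95th percentile of the 43 probe sets for olfactory receptors, with means over the 6 arrays between 8.01 for Socs1 and 13.81 for Ly6e. At an adjusted p under 0.05 (limma, Benjamini-Hochberg over all probe sets) 0 of the 38 genes were called, as were 0 of all 18194 genes (0%). At an unadjusted p under 0.05, 0 members were higher in shTNC ECs, against 4.54% of all genes, and 1 member, Irf8, was lower (2.63%), against 7.12% of all genes. The study set thresholds for another comparison, to pick genes of secreted proteins upregulated in ECs 3 weeks after injection. They require an unadjusted p under 0.05, a difference beyond 0.75 log2 units and an adjusted p under 0.25. Applied here to shTNC against shControl in either direction, they called 0 members and 0.148% of all genes.

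Of the 38 genes, 24 were higher and 14 lower in shTNC ECs, so that 63.2% had a positive difference, against 41.7% of all genes. The median difference was 0.039 for the members and -0.030 for all genes. Sizes were small: the median size of a difference, regardless of sign, was 0.081 for the members and 0.104 for all genes. The members also varied little within groups, with a median within-group SD of 0.090, against 0.125 for all genes. The 95% interval of the difference lay within 1 log2 unit on either side of 0 for 38 of 38 members, against 99.0% of all genes, and within 0.5 log2 units for 36 of 38 (94.7%), against 80.0% of all genes. The exceptions were Irf8 and Mx1, and the outermost bounds over the set were -0.79 and 0.38.

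**Figure D1:**
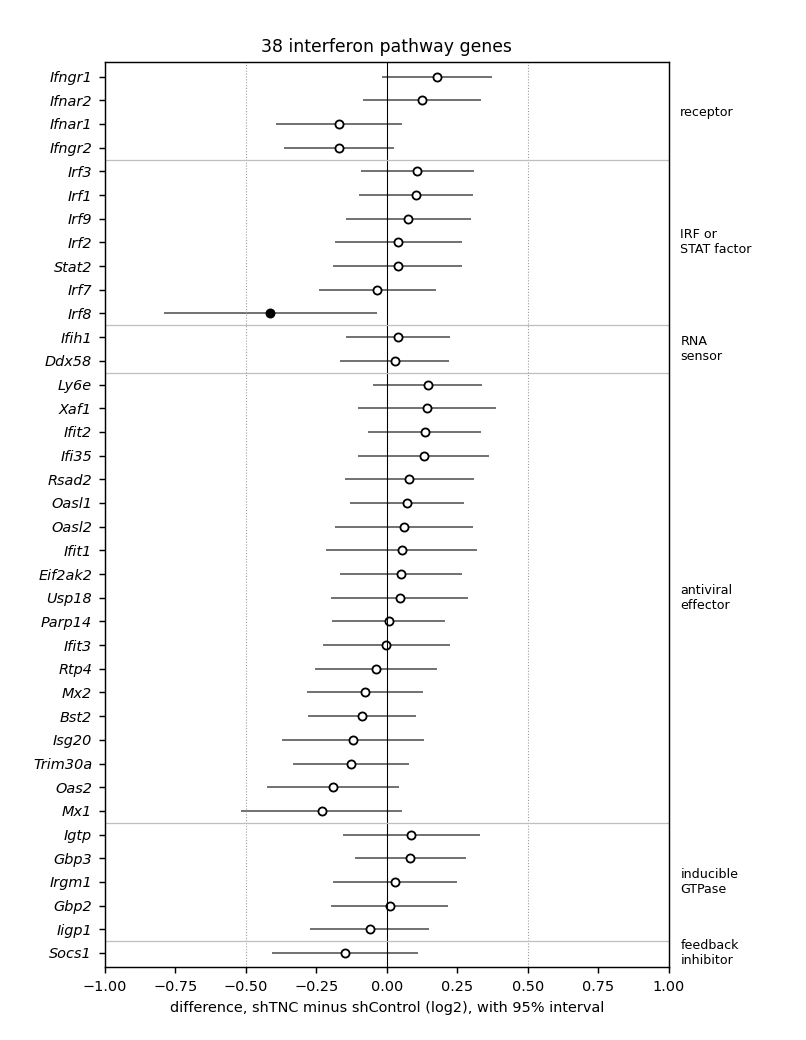
Difference between shTNC and shControl ECs on the log2 scale for the 38 measured genes, grouped by role, with the 95% interval of limma's fit (n = 3 arrays per group). Irf8 is the only gene with an unadjusted p under 0.05 (filled), and dotted lines at 0.5 on either side of 0 enclose the intervals of all genes but Irf8 and Mx1.

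The receptor subunits showed differences of opposite sign, none past the test, in that for each interferon 1 chain was higher and the other lower. Ifngr1, the ligand-binding chain of the interferon gamma receptor, had levels of 12.90, 12.91 and 12.81 on shTNC arrays, against 12.74, 12.71 and 12.65 on shControl arrays. Every shTNC array was above every shControl array, with a difference of 0.18 ± 0.083 (SE, limma, adjusted p = 0.412). Ifngr2, the signal-transducing chain of the same receptor, had 11.42, 11.36 and 11.39 in shTNC ECs, against 11.64, 11.50 and 11.55 in shControl ECs. Here every shTNC array was below every shControl array, with a difference of -0.17 ± 0.083 (limma, adjusted p = 0.427). Another, dimmer Ifngr2 probe set had the opposite sign, at 0.21 ± 0.099, so that the direction for this gene depends on the probe set.

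For the type I receptor, Ifnar2 had 13.16, 13.17 and 13.18 in shTNC ECs and 13.10, 13.12 and 12.92 in shControl ECs. The groups did not overlap, the shTNC arrays were almost identical (SD 0.014, against 0.11 in shControl ECs), and the difference was 0.12 ± 0.089 (limma, adjusted p = 0.584), or 0.062 without shControl replicate 3. Of its dimmer probe sets, 1 had a difference of the same size and 1 a difference near 0. Ifnar1 had 12.21, 12.19 and 12.04 in shTNC ECs and 12.37, 12.38 and 12.20 in shControl ECs. The groups overlapped in a single pair of arrays, shTNC replicate 1 and shControl replicate 3, and the difference was -0.17 ± 0.095 (limma, adjusted p = 0.488). Ifnar2, Il10rb, Ifnar1 and Ifngr2 follow each other on chromosome 16, so 3 of the 4 receptor genes lie in a single cluster, and they did not share a direction.

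**Figure D2:**
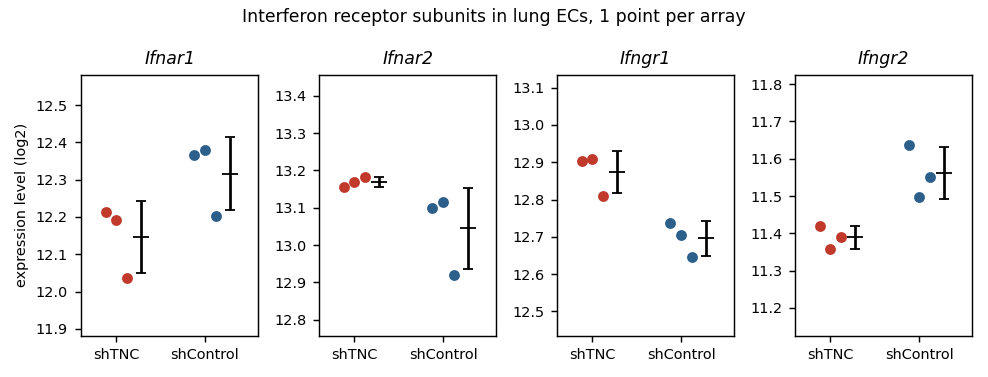
Log2 expression level of the 4 interferon receptor subunits on each array, with shTNC left of shControl, and the mean with SD beside the points (n = 3 per group). The axes span the same number of log2 units but start at different levels, and the groups are separate for Ifnar2 and Ifngr1 (shTNC above) and for Ifngr2 (shTNC below).

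Among the transcription factors, Stat2 and Irf9 had overlapping levels in both groups. Stat2 had 11.23, 11.18 and 11.07 on shTNC arrays and 11.15, 10.99 and 11.23 on shControl arrays, a difference of 0.038 ± 0.098 (limma, adjusted p = 0.899, 95% interval -0.19 to 0.26). Irf9, the DNA-binding partner of STAT2, had 11.98, 11.94 and 11.96 in shTNC ECs and 11.89, 11.75 and 12.01 in shControl ECs. All shTNC arrays lay between the shControl arrays, and the difference was 0.077 ± 0.094 (limma, adjusted p = 0.766, interval -0.14 to 0.29). Leaving out shControl replicate 2 gave 0.010, and leaving out shControl replicate 3 gave 0.14. Irf7, which amplifies interferon transcription and is itself interferon-induced, differed by -0.034 ± 0.088. Irf1, an early target of interferon gamma, differed by 0.10 ± 0.086, and Irf2, known as its antagonist, by 0.040 ± 0.096. Irf3, the factor activated by nucleic acid sensors, was higher on every shTNC array in its brightest probe set (0.11 ± 0.085), but its 4 probe sets gave 0.11, 0.13, -0.31 and -0.15, of which the third separated the groups the other way.

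Irf8, a factor that directs the development of macrophages and dendritic cells, had the largest difference of the set. Its levels were 8.72, 8.41 and 8.62 in shTNC ECs, against 9.22, 8.63 and 9.14 in shControl ECs. Both other shControl arrays were above all shTNC arrays, whereas shControl replicate 2 lay among them. The mean was 8.58 ± 0.16 in shTNC ECs and 9.0 ± 0.32 in shControl ECs (SD, n = 3 each), a difference of -0.41 ± 0.16 (95% interval -0.79 to -0.039), which is 0.751-fold on the linear scale. The unadjusted p of limma's fit was 0.0344 and the adjusted p = 0.348. Without shTNC replicate 2, shTNC replicate 3, shControl replicate 1 or shControl replicate 3 it lost an unadjusted p under 0.05, and over the 6 fits that left out 1 array it ranged from -0.59 to -0.30. Another Irf8 probe set, at 8.68 in shTNC ECs and 8.76 in shControl ECs, differed by only -0.078 ± 0.12.

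Markers of macrophages and monocytes were examined beside Irf8, because those cells express it. Of the 10 markers, 8 were lower and 2 higher in shTNC ECs (Ptprc, 0.32 ± 0.25, and Fcgr1, 0.053 ± 0.15), where 41.7% of all genes were higher. At an unadjusted p under 0.05, 2 of the 10 were lower, where 7.12% of all genes were. These were the mannose receptor gene Mrc1 (-0.62 ± 0.14) and the lipopolysaccharide co-receptor gene Cd14 (-0.32 ± 0.096). The mean level of the 10 markers was 8.66 to 9.0 on shTNC arrays and 8.93 to 9.04 on shControl arrays. The defining markers Adgre1 and Itgam were near background. Of the 4 measured dendritic cell markers, 3 were lower and 1 higher, with Xcr1, a marker of cross-presenting dendritic cells, below the background level on every shTNC array (7.38, 7.24 and 7.30, against 7.75, 7.76 and 7.53 in shControl ECs). Their mean level was 7.56 to 7.75 in shTNC ECs and 7.64 to 7.94 in shControl ECs. On shControl replicate 2, where Irf8 was lowest among shControl arrays, the summaries of the macrophage markers disagreed. The median marker was the highest of the 3 arrays (0.097 above its mean over the arrays, against 0.049 and 0.074). The mean level of the 10 markers was the lowest of the 3 (8.93). In sorted bulk cells, fewer cells of a type and less RNA per cell cannot be told apart, and the part of these cells in the Irf8 difference was not tested.

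The RNA sensors were nearly level. Ifih1, which encodes MDA5, differed by 0.040 ± 0.079 and Ddx58, which encodes RIG-I, by 0.028 ± 0.083, with 95% intervals of -0.14 to 0.22 for Ifih1 and -0.16 to 0.22 for Ddx58.

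Of the 19 antiviral effectors, 11 were higher (57.9%, against 41.7% of all genes) and 8 lower in shTNC ECs. At an unadjusted p under 0.05, 0 of them were called, where 4.54% of all genes were higher and 7.12% lower. Their median difference was 0.045. Ly6e, a membrane-anchored protein that acts on virus entry, had 13.89, 13.86 and 13.88 in shTNC ECs, against 13.78, 13.65 and 13.77 in shControl ECs. Every shTNC array was higher, by 0.14 ± 0.083 (limma, adjusted p = 0.496). Xaf1, a pro-apoptotic partner of XIAP, had 10.92, 10.91 and 10.65 in shTNC ECs and 10.75, 10.72 and 10.59 in shControl ECs. The groups overlapped through shTNC replicate 3, and the difference was 0.14 ± 0.10 (limma, adjusted p = 0.597). It was 0.23 without that array and 0.093 without shControl replicate 3.

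The Ifit genes, whose proteins bind viral RNA, did not move as a block. Ifit2 had 11.97, 12.03 and 11.88 in shTNC ECs and 11.77, 11.84 and 11.87 in shControl ECs. The groups were separate by a narrow margin, at 0.13 ± 0.086 (limma, adjusted p = 0.537). Ifit1, with 2 ISRE cores in its promoter, had 12.31, 12.21 and 12.14 in shTNC ECs and 12.06, 12.05 and 12.39 in shControl ECs. Its highest and its lowest arrays were both shControl arrays, and the difference of 0.053 ± 0.11 (limma, adjusted p = 0.877) was smaller than the within-group SD. Ifit3, next to Ifit2 on the chromosome and also with 2 ISRE cores, differed by -0.0014 ± 0.096, with group means of 13.02 in shTNC ECs and 13.02 in shControl ECs.

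At the other end were Mx1 and Oas2, both classical readouts of type I interferon. Mx1, a dynamin-like GTPase, had 10.09, 9.81 and 9.73 on shTNC arrays and 9.95, 10.19 and 10.19 on shControl arrays. The difference of -0.23 ± 0.12 (limma, unadjusted p = 0.0941, adjusted p = 0.461) rested on 2 of the 3 arrays in each group, since shTNC replicate 1 was higher than shControl replicate 1. Oas2, which makes the oligoadenylates that activate RNase L, had 11.10, 10.98 and 10.82 in shTNC ECs and 11.16, 11.09 and 11.23 in shControl ECs. The overlap was slight, and the difference was -0.19 ± 0.10 (limma, unadjusted p = 0.0913, adjusted p = 0.457). Without shTNC replicate 1, both genes reached an unadjusted p under 0.05 (Mx1 -0.34, Oas2 -0.26), and Mx1 also did without shControl replicate 1 (-0.31). Without shTNC replicate 3 the differences were smaller, at -0.16 for Mx1 and -0.12 for Oas2. Among their relatives, Mx2 had the same sign and the OAS-like genes the opposite sign, each with a difference smaller than its SE. Mx2 differed by -0.077 ± 0.088, Oasl1 by 0.071 ± 0.087 and Oasl2, its neighbour on chromosome 5, by 0.061 ± 0.10.

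Among the remaining effectors, Bst2, which tethers budding viruses to the cell surface, was lower on every shTNC array, with 13.40, 13.33 and 13.45 in shTNC ECs, against 13.46, 13.51 and 13.48 in shControl ECs, with a difference of only -0.088 ± 0.082. Differences were positive for Ifi35 (0.13 ± 0.099), Rsad2 (0.079 ± 0.098), the RNA-dependent kinase gene Eif2ak2 (0.050 ± 0.093) and Usp18 (0.045 ± 0.10), whose product removes ISG15 from proteins and dampens type I receptor signaling. They were negative for the TRIM ligase gene Trim30a (-0.13 ± 0.088), the exonuclease gene Isg20 (-0.12 ± 0.11) and Rtp4 (-0.039 ± 0.093). The ADP-ribosyltransferase gene Parp14 differed by 0.0062 ± 0.086. None of these 8 genes separated the groups in its brightest probe set. For Eif2ak2, 1 dimmer probe set was higher on every shTNC array (0.18 ± 0.085) and another had the opposite sign (-0.081 ± 0.11).

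The interferon-inducible GTPases, which act on the vacuoles of intracellular microbes and are strongly induced by interferon gamma, had a median difference of 0.028. None of them separated the groups in its brightest probe set. Igtp differed by 0.087 ± 0.10, Gbp3 by 0.083 ± 0.084, Irgm1 by 0.028 ± 0.094, Gbp2 by 0.0098 ± 0.089 and Iigp1 by -0.061 ± 0.090. Socs1, which inhibits JAK kinases and is induced by the signal it restrains, was the dimmest gene of the set, at 7.94 ± 0.14 in shTNC ECs and 8.09 ± 0.14 in shControl ECs (SD, n = 3 each), a difference of -0.15 ± 0.11.

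**Figure D3:**
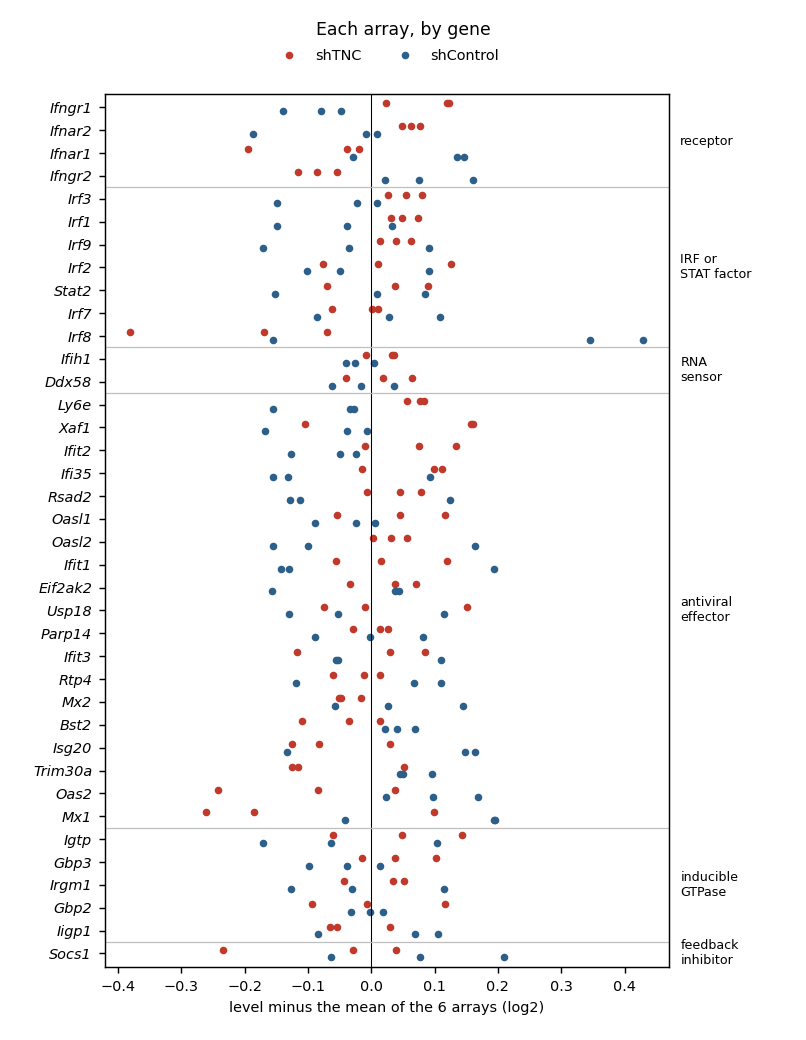
Level of each of the 38 genes on each array, as the difference from the mean of that gene over the 6 arrays (log2), with the 3 shTNC points above the 3 shControl points in each row. The groups are separate in 7 rows (Ifnar2, Ifngr1, Irf3, Ifit2 and Ly6e with shTNC to the right, Ifngr2 and Bst2 with shTNC to the left), and Irf8 spans the widest range.

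Over the whole set, the 3 shTNC arrays were all above the 3 shControl arrays for 5 of 38 genes (Ifnar2, Ifngr1, Irf3, Ifit2 and Ly6e, 13.2%), against 7.36% of all genes. They were all below for 2 genes (Ifngr2 and Bst2, 5.26%), against 12.4% of all genes. Irf8, Mx1 and Ifit1, which had the largest within-group SD of the set (0.25, 0.17 and 0.15), all overlapped between groups. A large within-group SD itself makes overlap more likely, so this says nothing further about these genes. The SD was larger in shControl than in shTNC ECs for 23 of 38 genes (60.5%), against 65.3% of all genes.

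Within a group, the median effector varied more between samples than it differed between groups. For the 19 effectors, each relative to its mean over the arrays, the median was 0.076, -0.012 and -0.0098 on the shTNC arrays and -0.089, 0.037 and 0.044 on the shControl arrays. The highest and the lowest array were both replicate 1 of their group, and the remaining shTNC arrays were below the remaining shControl arrays. The GTPases gave 0.10, 0.034 and -0.055 in shTNC ECs and -0.039, -0.0013 and 0.019 in shControl ECs. Of the 38 genes, 9 were highest on shTNC replicate 1 and 11 were lowest on shControl replicate 1, while shControl replicate 2, the array that stood apart, was the highest for 10 and the lowest for 8. Without shControl replicate 1 the median difference of the set was -0.0014 in place of 0.039, and without shControl replicate 2 it was 0.022.

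**Figure D4:**
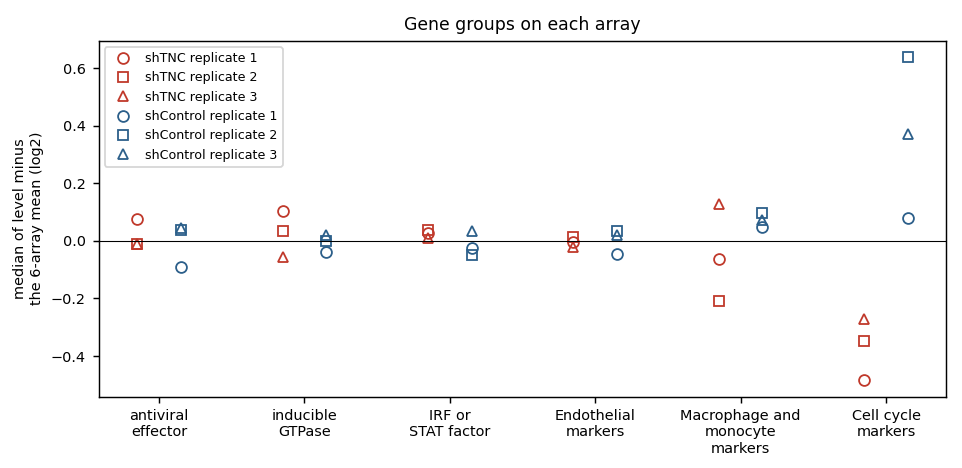
Median over the genes of a group, each taken relative to its mean over the 6 arrays (log2), for 3 groups of interferon pathway genes and for endothelial, macrophage and cell cycle markers. The effectors mix the groups (shTNC from -0.012 to 0.076, shControl from -0.089 to 0.044), as do the endothelial markers, whereas the cell cycle markers separate them.

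Sorting by the ISRE core was possible for 30 of the 38 measured genes and is given as a description with no test. The genes with no matched promoter, which include Mx1, Oas2 and Ly6e, were left out of it. The 15 measured genes with the element had a median size of difference of 0.050 and ranged from -0.15 (Socs1) to 0.087 (Igtp), and 11 of them were higher in shTNC ECs. The 15 without it had a median size of 0.124 and ranged from -0.41 (Irf8) to 0.18 (Ifngr1), and 10 were higher. All 4 receptor genes are among those without the element, whose stretches for Ifngr1 and Ifngr2 are printed above.

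For some genes the direction depended on the probe set. Of the 38 genes, 17 had several probe sets above background, and in 7 of them (Ifnar2, Ifngr2, Irf3, Eif2ak2, Rtp4, Trim30a and Iigp1) the probe sets differed in sign. For Trim30a the brightest probe set gave -0.13 ± 0.088 and the other 0.15 ± 0.080, with all shTNC arrays higher in the other. For Gbp2 the brightest gave 0.0098 ± 0.089 and the other 0.19 ± 0.090, also with all shTNC arrays higher in the other. Many of these genes have close paralogs in the mouse genome (the Ifit, Gbp, Oas, Trim30 and Irg families), and whether probes bind RNA of a paralog was not tested.

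**Figure D5:**
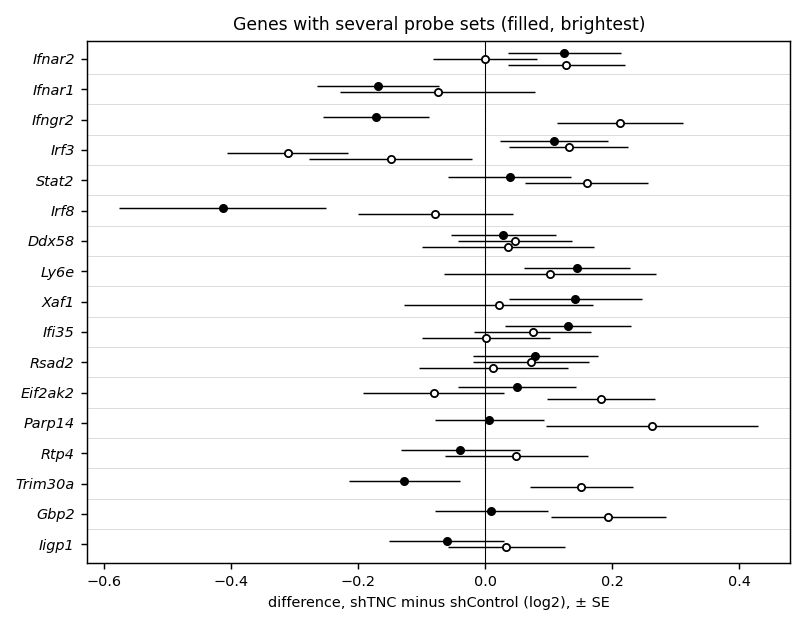
Difference between shTNC and shControl ECs (log2, with SE, n = 3 per group) for every probe set above background of the 17 genes that have several, with the brightest probe set filled. Irf3 spans -0.31 to 0.13, and the probe sets of Ifngr2 and Trim30a fall on opposite sides of 0.

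A wider list of 87 further pathway genes, compiled from general knowledge, was set beside the members. Of these, 74 were measured, 5 of them near background. In shTNC ECs 44 were higher (59.5%, against 41.7% of all genes) and 30 lower, with a median difference of 0.031. At an adjusted p under 0.05, 0 were called, and at an unadjusted p under 0.05, 1 was higher (1.35%, against 4.54% of all genes) and 3 were lower (4.05%, against 7.12%). Tmem173, which encodes the DNA-sensing adaptor STING, had the smallest p, with 10.246, 9.9998 and 10.089 in shTNC ECs, against 10.446, 10.536 and 10.531 in shControl ECs. Every shTNC array was lower, with a difference of -0.39 ± 0.095 (limma, unadjusted p = 0.00307, adjusted p = 0.226). Ifitm1, whose product blocks virus entry, differed by -0.22 ± 0.082 and the Schlafen gene Slfn8 by -0.24 ± 0.10, also with every shTNC array lower. The torsin ATPase gene Tor3a was higher by 0.29 ± 0.11, with 12.16, 12.02 and 11.90 in shTNC ECs, against 11.59, 11.78 and 11.86 in shControl ECs.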

How the data were processed

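Gene expression of sorted lung ECs was measured on 6 Affymetrix mouse arrays, labelled from 2 ng of total RNA each. The deposited values are log2 levels per probe set, which the authors state were normalized by RMA in Chipster. Whether all values come from RMA was not settled, since an array holds only 5773 to 6883 distinct values among 45101 probe sets. Sorted values of any pair of arrays differed by at most 0.0700, and the number of arrays limits the precision. No raw array files were used.

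Of the probe sets, 34958 carried 1 gene symbol, 932 several and 9211 none. A gene was represented by the brightest probe set that carried its symbol alone, by the mean over arrays. A two-sided limma fit (version 3.58.1, R 4.3.3; lmFit, eBayes) over all 45101 probe sets compared shTNC with shControl, with Benjamini-Hochberg adjustment, and the steps were tested on simulated data. Per-array values are given for the receptors, Stat2, Irf9, members with an unadjusted p under 0.05, the 4 largest differences in each direction and the 3 largest within-group SDs. Bst2 was added after its values were seen. Other pathway genes are named at an unadjusted p under 0.05. The members and lists were chosen with earlier results of these data known. Markers of neutrophils, lymphocytes, epithelium, fibroblasts and mural cells were also examined. At an unadjusted p under 0.05 they gave 0 of 3, 0 of 3, 0 of 4, 0 of 4 and 1 of 4 (Myh11, higher) genes. Of all genes, 4.54% were higher and 7.12% lower at that threshold. Promoters came from RefSeq (GRCm38.p6). Alternatives covered normalization, a filter on dim probe sets, the variance model, array weights, the probe set used, the replicate number as a block and leaving out each array.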

Additional observations from a re-analysis of the deposited data

How the results depend on the processing

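Across 14 alternatives 0 members passed an adjusted p under 0.05, and the smallest adjusted p of a named member was 0.209 (Ifngr1, intensity trend with robust empirical Bayes). At an unadjusted p under 0.05, that variance model called 2 members higher (Ifngr1 and Ly6e) and 3 lower (Ifnar1, Ifngr2 and Irf8), which is 5.26% and 7.89% of members, against 5.66% and 7.35% of all genes in that fit. The fit of the report called 0 higher and 1 lower. Array weights called 2 lower (Ifngr2 and Irf8, 5.26%, against 7.30% of all genes). The mean of a gene's probe sets called 1 higher (Ifngr1, 2.63%, against 5.47% of all genes) and 0 lower (against 7.49%). It turned the Ifngr2 difference to 0.020. Testing 1 probe set per gene called 1 higher (Ifngr1, 2.63%, against 5.13% of all genes) and 1 lower (Irf8, 2.63%, against 7.99%). Leaving out 1 array gave 0 to 3 members lower. There were 3 without shTNC replicate 1 (Irf8, Mx1 and Oas2, 7.89%, against 4.69% of all genes). There was 1 without shControl replicate 1 (Mx1, 2.63%, against 6.7%) and 1 without shControl replicate 2 (Irf8, 2.63%, against 5.26%). There were 0 without shTNC replicate 2 (against 5% of all genes), shTNC replicate 3 (4.56%) or shControl replicate 3 (9.55%). The median difference of the set ranged from -0.0014 to 0.057. Without shControl replicate 2 the differences of Stat2 and Ifit1 changed sign, and over the fits without 1 array they ranged from -0.029 to 0.090 for Stat2 and from -0.0052 to 0.16 for Ifit1. Of 182 differences of named members, 3 reversed. The causes were not tested. Samples with the same replicate number did not deviate together (correlations of -0.11, 0.063 and 0.14). With the replicate number as a block, 1 member (Irf8, adjusted p = 0.277) was lower and 0 were higher at an unadjusted p under 0.05. Of all genes, 6.86% were lower and 4.42% higher in that fit, and the block changed no call of a member. With 3 arrays per group, the median 95% interval of a member extends 0.214 log2 units to either side of its difference.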
